A study of Mus musculus with 35 samples.

Results

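The genes described here are 45 transcription factors of tissue development outside the HOX clusters, which are expected to be silent in blood. They were taken from a fixed list of SOX, PAX, LIM homeobox, Iroquois, NKX, forkhead, sine oculis, DLX, T-box, GATA, basic helix-loop-helix, OTX, GSC and EVX genes, and all 45 were found among 21887 protein-coding genes on chromosomes 1 to 19, X and Y. The data are peak lists from chromatin immunoprecipitation sequencing of 3 histone marks in C57BL/6 mouse bone marrow: H3K4me1, usual at enhancers and promoter flanks, H3K4me3, usual at promoters, and H3K27ac, usual at active promoters and enhancers. Lineage-negative haematopoietic stem and progenitor cells (HSPC) were taken from mice of 4 kinds, WT, Npm1c, Flt3-ITD and DM, and neutrophils only from WT, with 2 libraries for each of the 5 groups and each mark. Npm1c is the mutant nucleophosmin of acute myeloid leukaemia that lies in the cytoplasm, and Flt3-ITD is the internal tandem duplication of the FLT3 receptor. DM is read as carrying both mutations, which the labels do not spell out. The allele designs, any Cre driver, and the mice's age, sex and number were not stated in these sources. Lineage depletion leaves a mixture of stem cells and progenitors, so a change in which cells are present and a change within a cell cannot be told apart.

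The value used throughout is the length of the gene window under peaks, in kb, the window being the mm10 gene span with 5 kb on each side. Values are given as replicate 1 and then replicate 2. Every H3K4me1 and H3K4me3 peak is 1000 bp wide, so these values move in steps of about 1 kb. The lists hold no read counts, so depth is unknown, and a gene at 0 is a gene without a called peak, not a gene shown to lack the mark. A gene is said to have risen or fallen where limma, fitted to log2(bp + 500) over every gene with a peak in 2 or more of a mark's 10 libraries, gave a Benjamini-Hochberg adjusted p below 0.05 over all genes of that mark and comparison. No log2 change is given where a group was at 0 in both libraries, because the 500 bp would set its size. The interactions of Irx1 and Irx4 flagged in the closing section, and the points of a figure, are the exceptions.

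As background, genes of this kind sit in CpG islands, which Polycomb complexes keep silent in cells that do not use them. Polycomb repressive complex 2 writes H3K27me3 there, and enzymes of the COMPASS family write H3K4me3 on the same islands, a pairing called bivalent in embryonic stem cells and also known from blood progenitors. Active genes carry H3K27ac on the residue that Polycomb would methylate. H3K27me3 was not analysed here, so no gene is called bivalent, and the state described is H3K4me3 without H3K27ac.

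CpG dinucleotides were numerous in these promoters. RefSeq promoter sequences (GRCm38.p6, 250 bases before to 50 after the start) matched 31 of the 45 genes and 17492 protein-coding genes in all, using the most upstream entry of a gene. The promoters held a median of 25 CG dinucleotides (range 6 to 40) against 13 over all promoters, and 28 of 31 (90.3%) held 10 or more against 57.2% of all promoters. The motif searched was CG, which reads the same on both strands. The 150 bases before the start are shown for 2 genes without H3K4me3 in neutrophils, Nkx2-1 and Sox14, and for 2 genes that kept it, Lhx1 and Olig2, with CG in capitals.
Nkx2-1, chr12:56536909-56537058, minus strand: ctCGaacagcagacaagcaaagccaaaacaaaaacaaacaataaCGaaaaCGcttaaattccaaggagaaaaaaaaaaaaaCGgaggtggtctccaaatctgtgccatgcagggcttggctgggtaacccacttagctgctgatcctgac
Sox14, chr9:99876171-99876320, minus strand: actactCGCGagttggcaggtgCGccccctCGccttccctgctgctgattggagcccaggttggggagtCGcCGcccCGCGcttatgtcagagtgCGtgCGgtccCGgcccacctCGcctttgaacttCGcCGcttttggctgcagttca
Lhx1, chr11:84525535-84525684, minus strand: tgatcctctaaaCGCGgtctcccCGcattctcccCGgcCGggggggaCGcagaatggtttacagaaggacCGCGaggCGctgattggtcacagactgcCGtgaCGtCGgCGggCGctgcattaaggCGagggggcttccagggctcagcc
Olig2, chr16:91225400-91225549, plus strand: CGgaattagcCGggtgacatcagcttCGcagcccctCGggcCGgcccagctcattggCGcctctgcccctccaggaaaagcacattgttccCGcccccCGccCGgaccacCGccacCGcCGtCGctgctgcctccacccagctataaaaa
These stretches held 4 CG in Nkx2-1, 14 in Sox14, 15 in Lhx1 and 13 in Olig2. Over the genes with a promoter entry, the median count per promoter was 14 in the 11 genes at 0 for H3K4me3 in both neutrophil libraries and 25 in the 18 with H3K4me3 in both, and 10 of 11 (90.9%) of the former held 10 or more. At the start itself, H3K4me3 peaks lay over Lhx1 and Olig2 in both libraries of WT, DM and neutrophils, over Sox14 in 1 WT library and over Nkx2-1 in 0 WT libraries, its H3K4me3 lying elsewhere in the window. The count is a description of these letters only.

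The number of peaks in a list ranged between 102927 and 131205 in H3K4me1, between 30310 and 39320 in H3K4me3 and between 21709 and 30150 in H3K27ac. In H3K27ac, 12 neutrophil genes summed to 27.03 to 29.3 kb in neutrophils and 2.25 to 2.38 kb in WT HSPC, although Ly6g was at 0 in both neutrophil libraries, and Kit, Cd34, Flt3, Gata2 and Meis1 had peaks in WT HSPC and were at 0 in neutrophils. Of 12 stromal markers, 10 had no H3K27ac in WT HSPC, and of 10 endothelial markers 7 had none. Among the developmental genes 2 libraries stood apart from their partners. The DM H3K4me3 replicate 1 had 13 of the 45 genes at 0 against 4 in replicate 2, and the Npm1c H3K4me1 replicate 1 had 13 at 0 against 3 in replicate 2.

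**Figure D1:**
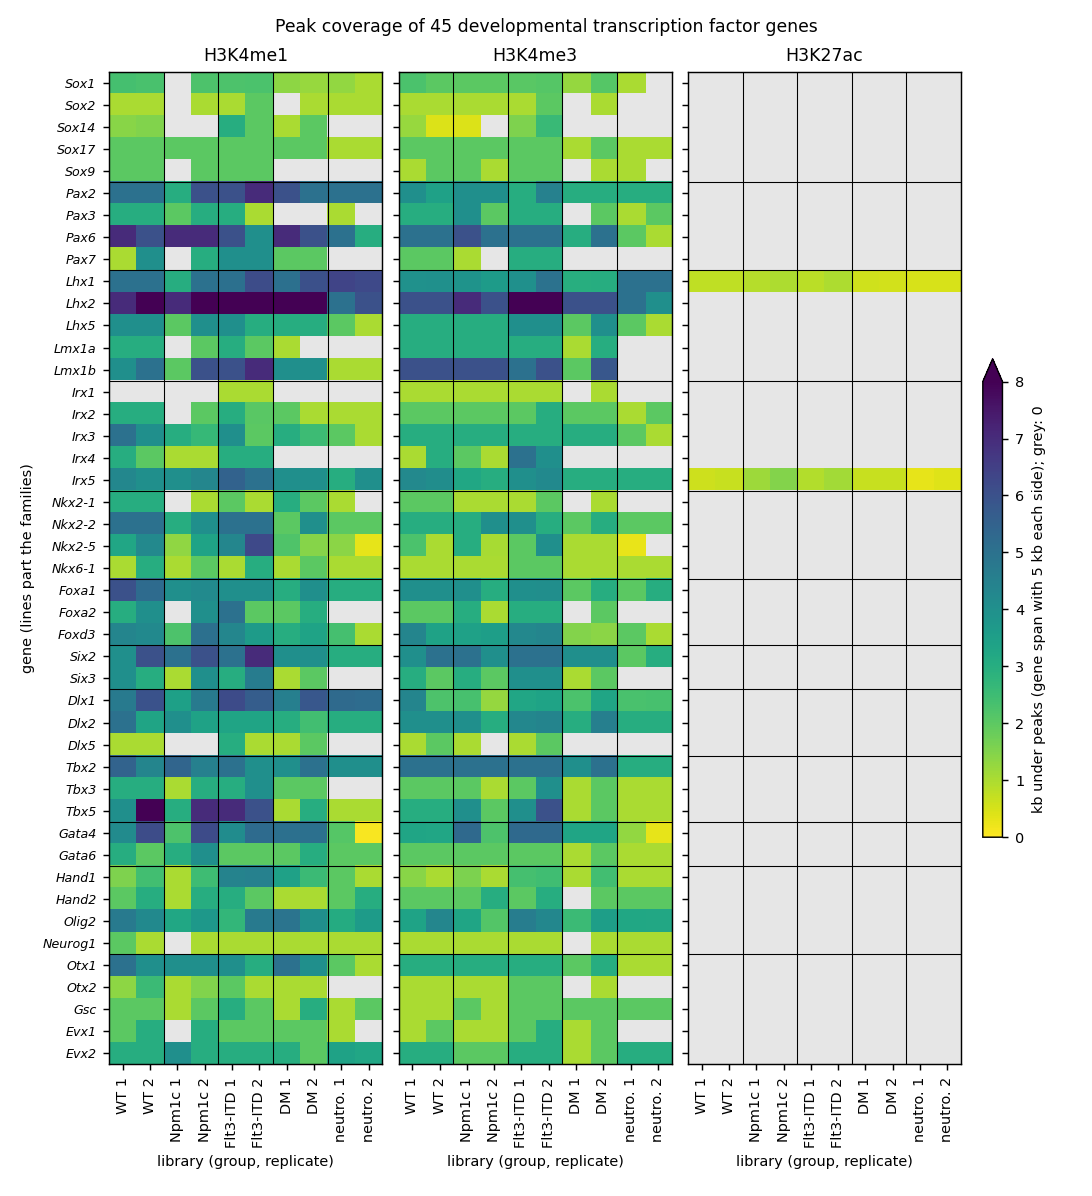
Kb under peaks (colour, 0 to 8 kb, grey for 0) of the 45 genes (rows, lines between families) in each of the 10 libraries of a mark (columns, group and replicate). H3K27ac is at 0 in every gene except Lhx1 and Irx5, and grey cells gather in DM replicate 1 and in neutrophils for H3K4me3.

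In WT HSPC all 45 genes had an H3K4me3 peak in both libraries and 44 had H3K4me1 in both, while only 2, Lhx1 and Irx5, had any H3K27ac. H3K4me3 in both libraries with H3K27ac in neither was found at 43 of 45 genes (95.6%), and 42 (93.3%) also had H3K4me1 in both. Over all protein-coding genes these shares were 17.9% and 16.8%. Among 76 other developmental factors 69 (90.8%) were in the first state, among 39 HOX genes 29 (74.4%), and among 23 blood transcription factors such as Gata1 and Spi1 only 3 (13.0%), the other 20 having both H3K4me3 and H3K27ac. The list was chosen as silent developmental genes with earlier results of these data known, so these shares describe it and are no test.

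**Figure D2:**
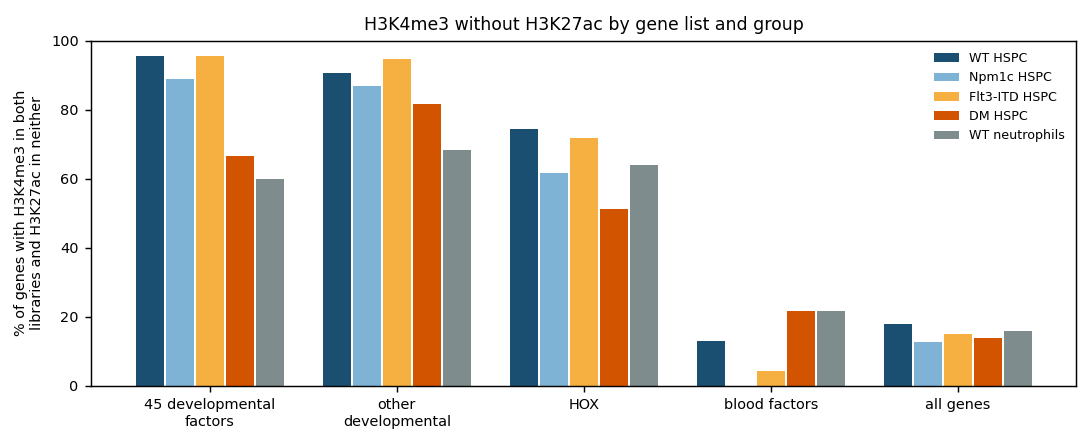
Share of genes (y axis, percent) with H3K4me3 in both libraries and H3K27ac in neither, for 5 gene lists (x axis) and 5 groups (bar colours). The 45 developmental factors stand at 95.6% in WT and Flt3-ITD HSPC and at 60.0% in neutrophils, and blood factors between 0% and 21.7%.

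Gene by gene, the most length under H3K4me3 peaks in WT lay at Lhx2 and Lmx1b (LIM homeobox), Pax6 (PAX) and Tbx2 (T-box). This is a sum over the window, not the width of a single domain. Windows differ in length, the gene span being 80244 bp for Lmx1b and 1703 bp for Neurog1. Lhx2, a factor of the forebrain and hair follicle (chr2:38339271-38369737), had H3K4me3 over 6 and 6 kb in WT, 7 and 6 kb in Npm1c, 8 and 8 kb in Flt3-ITD, 6 and 6 kb in DM and 5 and 4 kb in neutrophils. Lmx1b, needed for the dorsal limb and midbrain neurons (chr2:33560965-33641208), had 6 and 6 kb in WT as well, Pax6, the eye and forebrain factor, and Tbx2, a T-box repressor of heart and limb, had 5 and 5 kb each. Six2, which maintains kidney progenitors (chr17:85662736-85688254), had 4 and 5 kb in WT, 5 and 4 kb in Npm1c, 5 and 5 kb in Flt3-ITD, 4 and 4 kb in DM and 2 and 3 kb in neutrophils. Lhx2 stayed high in every group, with its lowest values in neutrophils. At the low end Sox2, Irx1, Nkx6-1, Neurog1, Otx2 and Gsc each had 1 and 1 kb in WT, a single peak. Irx1, an Iroquois gene (chr13:71958232-71963723), was the single gene without H3K4me1 in either WT library.

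The H3K27ac in the Lhx1 and Irx5 windows lay outside both gene spans. Lhx1, a factor of the head organiser and kidney, spans chr11:84517975-84525534. Its H3K27ac peaks, present in 10 of 10 libraries, lay between chr11:84512666-84514084, 3891 to 4462 bp from the span. This is at the higher-coordinate border of the neighbouring gene Aatf (chr11:84422856-84513584). Irx5, an Iroquois factor of heart and retina, spans chr8:92357796-92361456, and its peaks lay between chr8:92355027-92356562, 1234 to 2313 bp away. This is at the higher-coordinate border of the non-coding gene Crnde (chr8:92326031-92356120). The strands of Aatf and Crnde were not examined, so whether these borders are their starts is not stated here. Lhx1 H3K27ac covered 0.779 and 0.767 kb in WT, 0.889 and 0.979 kb in Npm1c, 0.822 and 0.97 kb in Flt3-ITD, 0.568 and 0.544 kb in DM and 0.498 and 0.488 kb in neutrophils. Irx5 H3K27ac covered 0.618 and 0.663 kb in WT, 1.16 and 1.48 kb in Npm1c, 0.911 and 1.11 kb in Flt3-ITD, 0.684 and 0.666 kb in DM and 0.294 and 0.39 kb in neutrophils. The values of both genes were lowest in neutrophils, where neither library overlapped WT, and those of Irx5 were highest in Npm1c. Within the gene spans themselves 0 of 45 genes had an H3K27ac peak in any library, and with 10 kb on each side the number was still 2. H3K27ac peaks vary in width, unlike those of the methylation marks, and their lists are shorter, so absence of a peak is not measured alike for the marks.

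At these genes the methylation marks overlapped each other. Of the H3K4me3-covered length of the 45 windows, 80.0% in WT replicate 1 and 77.6% in replicate 2 was also under H3K4me1, against 45.4% and 47.6% at genes with H3K27ac in both WT libraries and 75.8% and 74.8% at 3884 other genes with H3K4me3 and no H3K27ac in WT. In neutrophils the share at the 45 genes was 73.1% and 74.5%. At the transcription start itself, H3K4me1 covered 15 of the 31 annotated starts (48.4%) in both WT libraries, H3K4me3 also 15, and both marks together 11 (35.5%). Over all genes the H3K4me1 share was 14.9% and the H3K4me3 share 45.9%, and over 2917 annotated genes with H3K4me3 and no H3K27ac they were 40.3% and 60.3%. H3K27ac covered 0 of the 31 starts in every group. H3K4me3 covered 17 and 17 starts in the WT libraries, 13 and 17 in DM, where replicate 2 equalled WT, and 12 and 11 in neutrophils. H3K4me1 covered 16 and 17 in WT, 13 and 12 in DM and 7 and 10 in neutrophils.

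**Figure D3:**
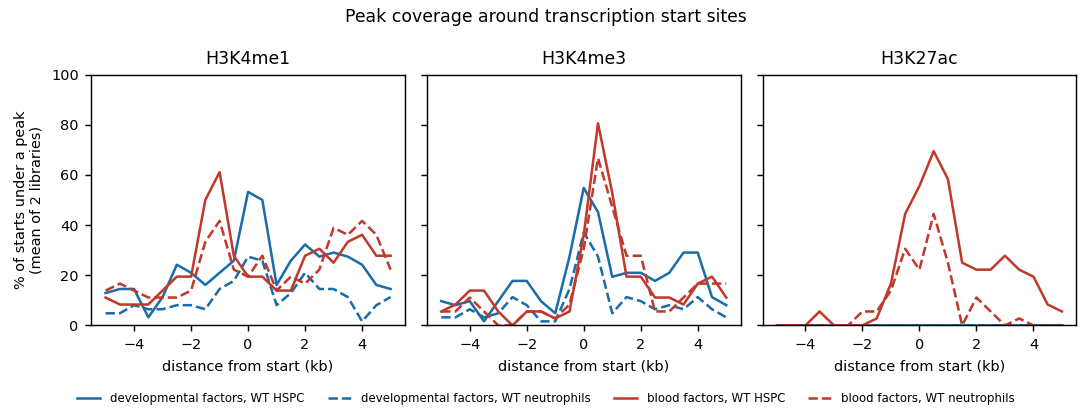
Share of starts under a peak (y axis, percent, mean of 2 libraries) at 500-bp steps from 5 kb before to 5 kb after the start (x axis, kb), for the 31 developmental factors (blue) and 18 blood factors (red) in WT HSPC (solid) and WT neutrophils (dashed). In WT HSPC, H3K4me1 at developmental factors is highest at the start (53.2%, against 21.0% at 1 kb upstream), while at blood factors it is 19.4% at the start and 61.1% at 1 kb upstream.

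In neutrophils both methylation marks covered less of the developmental genes than in WT HSPC. Summed over the 45 windows, H3K4me3 covered 122 and 121 kb in WT and 62.1 and 57.8 kb in neutrophils, and H3K4me1 covered 151 and 161 kb in WT and 81.2 and 71.7 kb in neutrophils, with no overlap between groups. Those sums were 49.4% and 49.0% of the WT mean, while over all tested genes the sums were 96.4% and 86.2% of WT. At other genes with H3K4me3 and no H3K27ac in WT they were 78.2% and 82.0% of WT. H3K4me3 fell at 12 of the 45 genes and rose at 0 (limma, 2 higher at an unadjusted p below 0.05), where 9.88% of 16138 genes tested fell and 6.72% rose, and among 3884 other genes in the same WT state 19.5% fell. The 12 are Lmx1a, Lmx1b, Otx1, Tbx2, Nkx2-1, Irx4, Irx5, Six3, Pax6, Pax7, Foxd3 and Evx1. Both neutrophil libraries lay below both WT libraries at 35 genes, against 20.3% of all genes tested and 33.8% of genes in the same WT state, and above both at 2, Lhx1 and Gsc, against 14.7% of all genes. The lists differ in coverage to lose: median WT H3K4me3 was 2.5 kb at the 45 genes, 1.5 kb over all genes and 1 kb in the same WT state. The part of this in the shares was not tested.

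H3K4me3 was at 0 in both neutrophil libraries at 13 of the 45 genes (28.9%): Sox2, Sox14, Pax7, Lmx1a, Lmx1b, Irx1, Irx4, Nkx2-1, Foxa2, Six3, Dlx5, Otx2 and Evx1. The share was 5.66% of other genes with H3K4me3 in both WT libraries, 19.9% of those of them without H3K27ac in WT, and 17.4% (12 of 69) of other developmental factors. The 13 genes had from 0.825 to 6 kb of H3K4me3 in WT (median of gene means 2 kb) and the 29 genes with H3K4me3 in both neutrophil libraries 1 to 6 kb (median 3 kb). Sox1, Sox9 and Nkx2-5 had H3K4me3 in 1 neutrophil library only. Of the 13, 9 also had no H3K4me1 in either neutrophil library, among them Irx1, which had none in WT either. Of the 29, 27 had H3K4me1 in both neutrophil libraries and 1 had it in neither. Over all protein-coding genes, 188 of 14575 with H3K4me3 in both neutrophil libraries had H3K4me1 in neither, so this pairing is not particular to the 45 genes. No share over all genes is set beside the 9 of 13.

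Among LIM homeobox genes, Lmx1b lost the most H3K4me3. Its H3K4me3 covered 6 and 6 kb in WT, 6 and 6 kb in Npm1c, 5 and 6 kb in Flt3-ITD, 2 and 5.84 kb in DM and 0 and 0 kb in neutrophils (limma, Benjamini-Hochberg adjusted p = 0.00217). Neutrophils were at 0, and DM replicate 1 stood well below DM replicate 2, which was near WT. Lmx1a, a midbrain dopamine neuron factor (chr1:167688230-167848741), had 3 and 3 kb in WT, 3 and 3 kb in Npm1c, 3 and 3 kb in Flt3-ITD, 1 and 3 kb in DM and 0 and 0 kb in neutrophils (limma, Benjamini-Hochberg adjusted p = 0.00464). Only neutrophils and DM replicate 1 were under the WT level. Lhx5, of the forebrain, had 3 and 3 kb in WT and 2 and 1 kb in neutrophils and did not pass the test. Lhx1 had H3K4me3 over 3.95 and 3.97 kb in WT, 3.88 and 3.62 kb in Npm1c, 3.99 and 4.99 kb in Flt3-ITD, 2.98 and 3 kb in DM and 5 and 5 kb in neutrophils, and its neutrophil values lay above both WT values without passing the test (log2 change 0.30 ± 0.09 SE, limma, Benjamini-Hochberg adjusted p = 0.089).

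Among PAX genes, Pax6 and Pax7 fell. Pax7, the muscle satellite cell factor (chr4:139737059-139833530), had H3K4me3 over 2 and 2 kb in WT, 1 and 0 kb in Npm1c, 3 and 3 kb in Flt3-ITD, 0 and 0 kb in DM and 0 and 0 kb in neutrophils (limma, Benjamini-Hochberg adjusted p = 0.028). DM and neutrophil libraries were all at 0 and Flt3-ITD libraries were above WT. Pax6 (chr2:105668896-105698410) had 5 and 5 kb in WT, 6 and 5 kb in Npm1c, 5 and 5 kb in Flt3-ITD, 3 and 5 kb in DM and 2 and 1 kb in neutrophils (log2 change -1.51 ± 0.31 SE, limma, Benjamini-Hochberg adjusted p = 0.0265). Its neutrophil libraries were the lowest, and DM replicate 1 lay below the other HSPC libraries. Pax2, of the kidney, kept 3 and 3 kb in neutrophils, and Pax3, of neural crest and muscle, had 3 and 3 kb in WT, 4 and 2 kb in Npm1c, 3 and 3 kb in Flt3-ITD, 0 and 2 kb in DM and 1 and 2 kb in neutrophils, with overlap between DM and Npm1c.

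Of the Six2, Six3, OTX, GSC and EVX genes, Six3, Otx1 and Evx1 fell. Six3, of the anterior forebrain (chr17:85613608-85626191), had H3K4me3 over 3 and 2 kb in WT, 3 and 2 kb in Npm1c, 4 and 4 kb in Flt3-ITD, 1 and 2 kb in DM and 0 and 0 kb in neutrophils (limma, Benjamini-Hochberg adjusted p = 0.00291). Evx1, of spinal interneurons (chr6:52313498-52318389), had 1 and 2 kb in WT, 1 and 1 kb in Npm1c, 2 and 3 kb in Flt3-ITD, 1 and 2 kb in DM and 0 and 0 kb in neutrophils (limma, Benjamini-Hochberg adjusted p = 0.0161). Both were at 0 in neutrophils while each DM range overlapped WT. Otx1, of the forebrain (chr11:21994764-22001651), had 3 and 3 kb in WT, 3 and 3 kb in Npm1c, 3 and 3 kb in Flt3-ITD, 2 and 3 kb in DM and 1 and 1 kb in neutrophils (log2 change -1.22 ± 0.15 SE, limma, Benjamini-Hochberg adjusted p = 0.00304). Otx2, its close relative in head and eye, had 1 and 1 kb in WT and 0 and 0 kb in neutrophils, 1 peak in each WT library, which did not pass the test (limma, Benjamini-Hochberg adjusted p = 0.0878). Gsc, the organiser gene, had 1 and 1 kb in WT and 2 and 2 kb in neutrophils and did not pass the test (log2 change 0.74 ± 0.23 SE, limma, Benjamini-Hochberg adjusted p = 0.0878), and Evx2, whose window overlaps that of Hoxd13, had 3 and 3 kb in both.

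Among Iroquois genes, Irx4 and Irx5 fell. Irx4, of the heart ventricle (chr13:73259589-73269622), had H3K4me3 over 1 and 3 kb in WT, 2 and 1 kb in Npm1c, 5 and 4 kb in Flt3-ITD, 0 and 0 kb in DM and 0 and 0 kb in neutrophils (limma, Benjamini-Hochberg adjusted p = 0.025). Flt3-ITD was above WT, and all DM and neutrophil libraries were at 0. Irx5 had 4.22 and 4.07 kb in WT, 3.24 and 3 kb in Npm1c, 4 and 4.2 kb in Flt3-ITD, 3 and 3 kb in DM and 3 and 3 kb in neutrophils. It fell in neutrophils (log2 change -0.41 ± 0.04 SE, limma, Benjamini-Hochberg adjusted p = 0.000928). This is a step of about 1 peak with almost no spread between replicates. Irx3 had 3 and 3 kb in WT and 2 and 1 kb in neutrophils and Irx2 2 and 2 kb in WT and 1 and 2 kb in neutrophils, and neither passed.

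The NKX, forkhead and T-box genes gave 1 call each. Nkx2-1, the thyroid and lung factor (chr12:56531935-56536908), had H3K4me3 over 2 and 2 kb in WT, 1 and 1 kb in Npm1c, 1 and 2 kb in Flt3-ITD, 0 and 1 kb in DM and 0 and 0 kb in neutrophils (limma, Benjamini-Hochberg adjusted p = 0.0397). Foxd3, of the neural crest (chr4:99656299-99658671), had 4.36 and 3.4 kb in WT, 3.41 and 3.52 kb in Npm1c, 4.28 and 4.36 kb in Flt3-ITD, 1.49 and 1.41 kb in DM and 2 and 1 kb in neutrophils (log2 change -1.17 ± 0.25 SE, limma, Benjamini-Hochberg adjusted p = 0.029). In Foxd3 both DM libraries were as low as neutrophils, and no library of either group overlapped WT. Tbx2 (chr11:85832615-85841948) had 5 and 5 kb in WT, 5 and 5 kb in Npm1c, 5 and 5 kb in Flt3-ITD, 4 and 5 kb in DM and 3 and 3 kb in neutrophils (log2 change -0.65 ± 0.09 SE, limma, Benjamini-Hochberg adjusted p = 0.00511). Its neutrophil libraries stood below all others. Nkx2-5 and Tbx5, both of the heart, and Foxa1 and Foxa2, pioneer factors of the endoderm, were lower in both neutrophil libraries than in both WT libraries, and their changes did not pass the test (limma, Benjamini-Hochberg adjusted p = 0.103, 0.0921, 0.18 and 0.127).

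The 12 genes that fell included no SOX, DLX, GATA or basic helix-loop-helix gene. Gata4, of heart and endoderm, had H3K4me3 over 3.31 and 3.27 kb in WT, 5.27 and 2.23 kb in Npm1c, 5.27 and 5.26 kb in Flt3-ITD, 3.3 and 3.28 kb in DM and 1.3 and 0.31 kb in neutrophils (log2 change -1.65 ± 0.48 SE, limma, Benjamini-Hochberg adjusted p = 0.0878). The neutrophil values were the lowest of all groups. In the helix-loop-helix genes, Hand2 of the heart and Neurog1 of sensory neurons had the same values in neutrophils as in WT, 2 and 2 kb and 1 and 1 kb, and Olig2, of oligodendrocytes and motor neurons, had 3.35 and 4.32 kb in WT and 3.24 and 3.2 kb in neutrophils. The helix-loop-helix family sum was 7.77 and 8.32 kb in WT and 7.24 and 7.20 kb in neutrophils, while the SOX sum was 7.50 and 7.41 kb and 3 and 1 kb, and the forkhead sum 10.4 and 9.40 kb and 4 and 4 kb. The difference between families was not tested.

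Of the 12 H3K4me3 calls in neutrophils, those of Lmx1a, Lmx1b and Six3 passed under every alternative processing and with each library left out. Pax7 passed every alternative, but its call and that of Nkx2-1 ended with any 1 library left out. Irx5 and Tbx2, whose replicates hardly differed, ended with libraries centred on their median and when the spread was held to at least that of 1 peak. Otx1 and Foxd3 ended with centring too, and Pax6 and Irx4 with the replicate number as a block. Without the 5 kb on each side the calls of Otx1, Foxd3 and Irx4 ended, and the Otx1 window overlaps the gene Ehbp1. Those of Nkx2-1 and Foxd3 ended without a filter. The Nkx2-1 call also ended with 100 bp added or with 10 kb on each side, and the Irx4 and Evx1 calls with 2000 bp added. Leaving out 1 library moved the count from 12 to between 7 and 12, with 7 without WT replicate 2 and 8 without WT replicate 1.

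**Figure D4:**
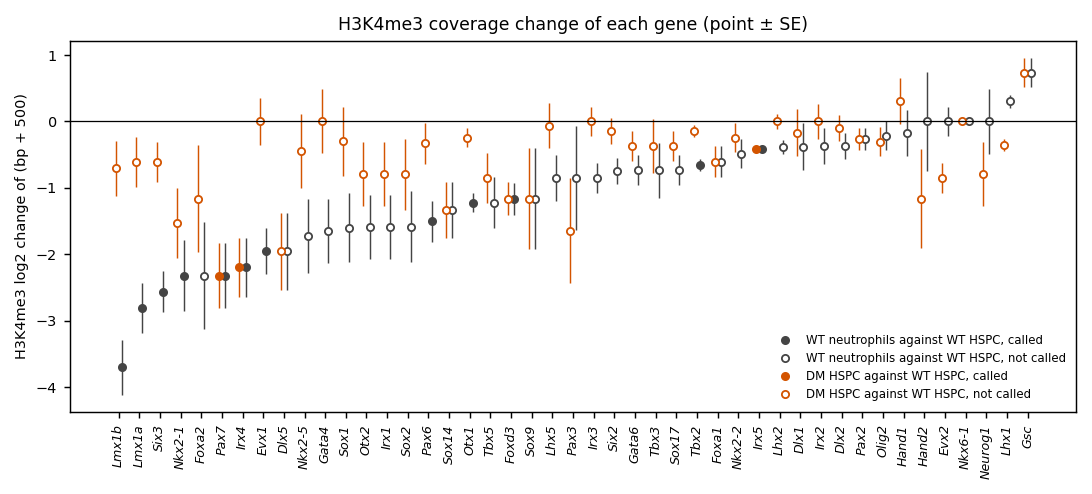
Change in H3K4me3 (y axis, log2 of bp + 500, point ± SE from limma) of each of the 45 genes (x axis, ordered by the neutrophil change) in neutrophils (grey) and DM (orange) against WT HSPC, filled where the gene passed the test. Most points lie below 0, and Lhx1 and Gsc lie above it in neutrophils. For genes at 0 the 500 bp sets the size.

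H3K4me1 fell at 12 genes in neutrophils and rose at 0 (limma, 0 higher at an unadjusted p below 0.05), where 17.7% of 17119 genes fell and 4.54% rose. The share that fell was 19.5% of other genes in the WT state of H3K4me3 without H3K27ac. The 12 were Sox14, Sox17, Lmx1b, Irx3, Irx4, Nkx2-2, Foxa1, Six3, Dlx5, Tbx3, Otx1 and Otx2. Both neutrophil libraries lay below both WT libraries at 32 genes (38.1% of all genes and 42.9% of those in the same WT state did) and above at 2, Lhx1 and Evx2 (17.6%). Across all genes the median H3K4me1 change was −0.14 on the log2 scale, and the median difference at the 45 genes was −2 kb against −0.5 kb over all genes.

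Lmx1b, Six3, Irx4 and Otx1 fell in both marks. Irx4 H3K4me1 covered 3 and 2 kb in WT, 1 and 1 kb in Npm1c, 3 and 3 kb in Flt3-ITD, 0 and 0 kb in DM and 0 and 0 kb in neutrophils (limma, Benjamini-Hochberg adjusted p = 0.000111). Otx2 H3K4me1 covered 1.35 and 2.54 kb in WT, 1 and 1.5 kb in Npm1c, 2 and 1 kb in Flt3-ITD, 1 and 1 kb in DM and 0 and 0 kb in neutrophils (limma, Benjamini-Hochberg adjusted p = 0.00588). Tbx3, of heart conduction and limb (chr5:119670534-119684724), had 3 and 3 kb in WT, 1 and 3 kb in Npm1c, 3 and 4 kb in Flt3-ITD, 2 and 2 kb in DM and 0 and 0 kb in neutrophils (limma, Benjamini-Hochberg adjusted p = 0.00432). These 3 genes were at 0 in neutrophils and their calls held under every alternative and with each library left out. Lmx1b kept 1 and 1 kb of H3K4me1 in neutrophils although its H3K4me3 was at 0 (log2 change -1.73 ± 0.42 SE, limma, Benjamini-Hochberg adjusted p = 0.0353). Tbx3 was the reverse, with 1 and 1 kb of H3K4me3 and no H3K4me1. Nkx2-2, of pancreas and ventral spinal cord, had 5 and 5 kb in WT, 3 and 4 kb in Npm1c, 5 and 5 kb in Flt3-ITD, 2 and 4 kb in DM and 2 and 2 kb in neutrophils (log2 change -1.14 ± 0.27 SE, limma, Benjamini-Hochberg adjusted p = 0.0342). Foxa1 had 6 and 5.19 kb in WT, 4 and 4.17 kb in Npm1c, 4 and 4 kb in Flt3-ITD, 3 and 4 kb in DM and 3 and 3 kb in neutrophils (log2 change -0.80 ± 0.13 SE, limma, Benjamini-Hochberg adjusted p = 0.00794). For both genes every mutant library was at or below WT, and neutrophils were among the lowest.

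Other H3K4me1 calls in neutrophils rested on small steps. Sox17, of endoderm and endothelium, had 2 and 2 kb in all 4 HSPC groups and 1 and 1 kb in neutrophils, with no spread anywhere, and its call ended when the spread was held to 1 peak. Dlx5, of craniofacial bone, had 1 and 1 kb in WT, 0 and 0 kb in Npm1c, 3 and 1 kb in Flt3-ITD, 1 and 2 kb in DM and 0 and 0 kb in neutrophils (limma, Benjamini-Hochberg adjusted p = 0.0465). Sox14 had 1.43 and 1.51 kb in WT, 0 and 0 kb in Npm1c, 3 and 2 kb in Flt3-ITD, 1 and 2 kb in DM and 0 and 0 kb in neutrophils (limma, Benjamini-Hochberg adjusted p = 0.00407). Dlx5 and Sox14 were at 0 in Npm1c as well as in neutrophils. Irx3 had 5 and 4 kb in WT and 2 and 1 kb in neutrophils and Six3 4 and 3 kb in WT and 0 and 0 kb in neutrophils, in each case with no overlap. Without the 5 kb on each side, the neutrophil calls of Foxa1, Sox14, Lmx1b, Irx3 and Dlx5 ended. Foxa1 and Sox14 then showed no change, so theirs lay outside the gene span. The Foxa1 window overlaps that of Ttc6. Leaving out 1 library gave 6 to 11 calls, with 6 without WT replicate 1 and 7 without WT replicate 2 or neutrophil replicate 2, and Irx4, Otx2 and Tbx3 are the calls that held throughout.

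**Figure D5:**
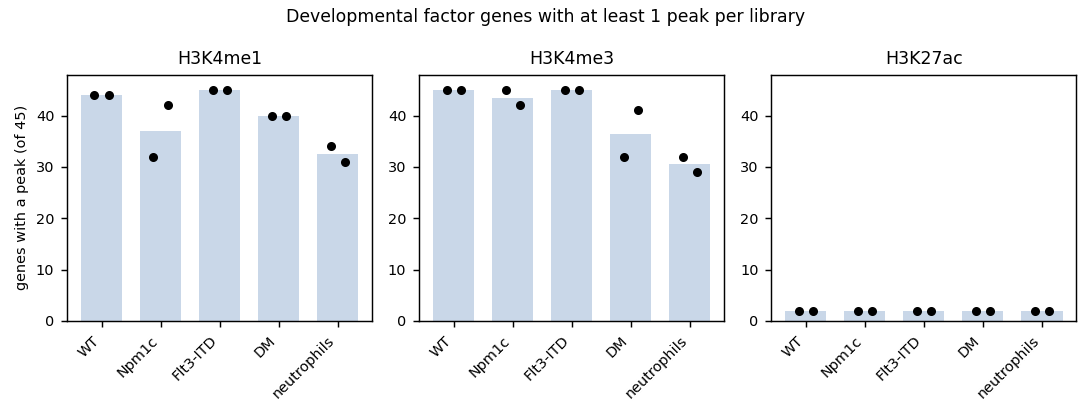
Number of the 45 genes with at least 1 peak (y axis) in each group (x axis), with points for the 2 libraries and bars for their mean. H3K4me3 reaches all 45 genes in WT and Flt3-ITD libraries, 32 and 41 in DM and 32 and 29 in neutrophils, and H3K27ac reaches 2 in every library.

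In DM HSPC the H3K4me3 of these genes lay lower than in WT, and the size depended on the library. The sum over windows was 67.8 and 106 kb in DM against 122 and 121 kb in WT, 71.8% of the WT mean, while over all tested genes it was 102%. Lower estimates were found at 37 genes (82.2%) and higher ones at 3, against 28.1% lower of all genes and 31.5% of genes in the same WT state. The unlike WT coverage of these lists, given above for neutrophils, holds here too. Without DM replicate 1 the estimates were lower at 21 and higher at 6, and without replicate 2 lower at 39 and higher at 2. H3K4me3 fell at 3 genes, Irx4, Irx5 and Pax7, and rose at 0 (limma, 1 higher at an unadjusted p below 0.05), where 3.7% of all genes fell and 4.47% rose. Among genes in the same WT state 5.84% fell. Both DM libraries lay below both WT libraries at 14 genes (31.1%), where 11.8% of all genes and 12.9% of genes in the same WT state did, and above at 1, Gsc (13.2% of all genes). Replicate 1 on its own lay below both WT libraries at 34 genes (17.7% of all genes) and replicate 2 at 14 (13.1%). Summed H3K4me3 of cell type markers differed by list. It was lower in DM at erythroid and neutrophil markers, higher at 6 B cell markers, with 13.7 to 14.5 kb in WT and 17.0 to 19.3 kb in DM, and overlapped between DM and WT at HSPC, T cell, stromal and endothelial markers. The 8 erythroid markers held 17 and 17 kb in WT and 8 and 8 kb in DM, with Hba-a1, Hbb-bs and Alas2 at 0. The 12 neutrophil markers held 25.5 to 27.2 kb in WT and 11.3 to 11.8 kb in DM, with S100a9, Ngp, Camp, Retnlg and Ly6g at 0. Their part in the result was not tested.

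Irx4, Pax7, Dlx5 and Sox14 had no H3K4me3 in either DM library, 4 of 45 (8.89%) against 1.78% of other genes with H3K4me3 in WT and 6.13% of those without H3K27ac in WT. The same 4 genes were also at 0 in neutrophils, and they are the 4 at 0 in DM replicate 2 alone. The comparisons of DM and of neutrophils share the WT libraries. Irx4 (limma, Benjamini-Hochberg adjusted p = 0.0445) and Pax7 (limma, Benjamini-Hochberg adjusted p = 0.0498) passed narrowly. Dlx5 had H3K4me3 over 1 and 2 kb in WT, 1 and 0 kb in Npm1c, 1 and 2 kb in Flt3-ITD, 0 and 0 kb in DM and 0 and 0 kb in neutrophils and Sox14 over 1.24 and 0.413 kb in WT, 0.407 and 0 kb in Npm1c, 1.56 and 2.57 kb in Flt3-ITD, 0 and 0 kb in DM and 0 and 0 kb in neutrophils. Neither passed the test in DM (limma, Benjamini-Hochberg adjusted p = 0.137 and 0.153). Irx5 fell as well (log2 change -0.41 ± 0.04 SE, limma, Benjamini-Hochberg adjusted p = 0.00168). Foxd3, with 1.49 and 1.41 kb in DM, did not pass (log2 change -1.16 ± 0.25 SE, limma, Benjamini-Hochberg adjusted p = 0.0532). Present in DM replicate 2 but at 0 in replicate 1 were, among others, Sox2, Irx1, Nkx2-1, Foxa2 and Otx2, which were at 0 in both neutrophil libraries.

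0 of the 3 DM calls for H3K4me3 held under every alternative: the count was 1 with the replicate number as a block, 7 with libraries centred on their median, 12 with the spread held to at least 1 peak, 2 without DM replicate 1 or WT replicate 1, 1 without WT replicate 2 and 14 without DM replicate 2. What sets DM replicate 1 apart was not tested.

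In DM, H3K4me1 fell at 3 genes, Pax3, Irx4 and Foxa1, and rose at 0 (limma, 1 higher at an unadjusted p below 0.05), where 14.4% of all genes fell and 1.9% rose. Both DM libraries lay below both WT libraries at 18 genes (40.0%), against 38.7% of all genes and 25.8% of genes in the same WT state, and above at 3 (11.2%), and the sums over windows were 119 and 123 kb, 77.5% of WT against 81.5% over all genes. Estimates were lower at 35 genes and higher at 5, and with libraries centred on their median the split turned, to 21 lower and 24 higher with 1 rise. No share over all genes is set beside this split. Pax3 H3K4me1 (chr1:78101267-78197136) covered 3 and 3 kb in WT, 2 and 3 kb in Npm1c, 3 and 1 kb in Flt3-ITD, 0 and 0 kb in DM and 1 and 0 kb in neutrophils (limma, Benjamini-Hochberg adjusted p = 0.0306). DM was at 0, and 1 neutrophil library was too. Irx4 (limma, Benjamini-Hochberg adjusted p = 0.000186) was at 0 in both DM libraries and its call held under every alternative and with each library left out. Foxa1 had 3 and 4 kb in DM against 6 and 5.19 kb in WT (log2 change -0.62 ± 0.13 SE, limma, Benjamini-Hochberg adjusted p = 0.0257). The Foxa1 call ended without the 5 kb, with libraries centred on their median and with the spread held to at least 1 peak. The count was 1 without WT replicate 1, and 2 without WT replicate 2 or DM replicate 1. Sox9, of cartilage and testis, had 2 and 2 kb in WT, 0 and 2 kb in Npm1c, 2 and 2 kb in Flt3-ITD, 0 and 0 kb in DM and 0 and 0 kb in neutrophils. It was at 0 in DM and in neutrophils and did not pass (limma, Benjamini-Hochberg adjusted p = 0.0747).

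DM was also set against each single mutant. For these comparisons no share over all genes is set beside the splits of lower and higher estimates. The splits in either methylation mark therefore describe the 45 genes only. H3K4me3 was lower in DM than in Flt3-ITD at 43 of 45 genes and fell at 7, Irx4, Irx5, Pax7, Lhx1, Foxd3, Nkx6-1 and Sox14, where 3.62% of all genes fell. Without DM replicate 1 it was lower at 30, higher at 4 and fell at 4, and without DM replicate 2 it fell at 16. The count was also 4 without either Flt3-ITD library, with 100 bp added or with 10 kb on each side, 3 without a filter or with the replicate number as a block, and 15 with the spread held to at least 1 peak. Against Npm1c H3K4me3 was lower at 35 genes and higher at 6, and fell at 0 (limma, 3 lower at an unadjusted p below 0.05), where 4.34% of all genes fell. Without DM replicate 1 it was lower at 21 and higher at 10, and without DM replicate 2 it fell at 12, while the count was 1 without either Npm1c library. The Irx4 difference was 5 and 4 kb in Flt3-ITD against 0 and 0 kb in DM (limma, Benjamini-Hochberg adjusted p = 0.0112). Foxd3 fell (log2 change -1.31 ± 0.25 SE, limma, Benjamini-Hochberg adjusted p = 0.0455), and so did Lhx1 (log2 change -0.51 ± 0.09 SE, limma, Benjamini-Hochberg adjusted p = 0.0407). Sox14 had 1.56 and 2.57 kb in Flt3-ITD and none in DM (limma, Benjamini-Hochberg adjusted p = 0.0401).

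In H3K4me1, DM against Npm1c gave lower estimates at 20 genes and higher ones at 21. Dlx5 and Sox14, at 0 in Npm1c, rose (limma, Benjamini-Hochberg adjusted p = 0.0339 and 0.0065), where 2.85% of all genes rose, and Pax3 and Irx4, at 0 in DM, fell (limma, Benjamini-Hochberg adjusted p = 0.0455 and 0.00149), where 10.9% fell. The count was 10 without Npm1c replicate 2, 2 without either DM library, with 2000 bp added or with the replicate number as a block, and 0 without the 5 kb. Against Flt3-ITD, H3K4me1 was lower at 34 genes and fell at Irx1 (limma, Benjamini-Hochberg adjusted p = 1.36e-07) and Irx4 (limma, Benjamini-Hochberg adjusted p = 0.000149), both at 0 in DM, where 7.9% of all genes fell. Irx1 had H3K4me1 peaks in the Flt3-ITD libraries alone and met the filter only through them, so its fall is no test. The count of H3K4me1 falls against Flt3-ITD was 1 without either Flt3-ITD library and 7 with the spread held to at least 1 peak. In H3K27ac, the Lhx1 and Irx5 windows fell against Npm1c (log2 change -0.44 ± 0.11 SE and -0.63 ± 0.13 SE, limma, Benjamini-Hochberg adjusted p = 0.0196 and 0.0125), where 29.8% of all genes fell and the median change was −0.29. Both H3K27ac calls ended with libraries centred on their median, with peaks of at least 500 bp or without Npm1c replicate 2, and the count was 1 without DM replicate 2 or without a filter. Against Flt3-ITD 0 H3K27ac windows passed (limma, 2 lower at an unadjusted p below 0.05), where 2.63% of all genes did. These comparisons share the DM libraries, and whether DM differed more from Flt3-ITD than from Npm1c was not tested. The interaction of Npm1c and Flt3-ITD, which asks whether DM equals the sum of both single changes, passed in limma at 2 genes for H3K4me1, Irx1 and Irx4, at 1 for H3K4me3, Nkx6-1, and at 2 for H3K27ac, Lhx1 and Irx5, where 4.25%, 5.74% and 17% of all genes passed. The Irx1 interaction is no test either, since the gene entered the fit through its Flt3-ITD peaks alone.

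All 45 genes had both methylation marks in both Flt3-ITD libraries. H3K4me3 summed to 140 and 155 kb, above both WT libraries, and was 121% of the WT mean against 108% over all genes. Both libraries lay above both WT libraries at 15 genes (33.3%), against 9.91% of all genes, and below at 0 (3.07%). Estimates were higher at 28 genes and lower at 5, and with libraries centred on their median the split turned, to 18 higher and 27 lower. No share over all genes is set beside this split. Nkx6-1, of beta cells and motor neurons (chr5:101659184-101664711), passed as a rise, where 2.27% of all genes rose: it had 2 and 2 kb in Flt3-ITD and 1 and 1 kb in each other group. With no spread in any group its call rests on 1 peak per library, and it ended when the spread was held to 1 peak. Tbx5 had H3K4me3 over 3 and 3 kb in WT, 4 and 2 kb in Npm1c, 4 and 6 kb in Flt3-ITD, 1 and 2 kb in DM and 1 and 1 kb in neutrophils, and Gata4 5.27 and 5.26 kb against 3.31 and 3.27 kb in WT. Both were higher in Flt3-ITD than in WT without passing (log2 change 0.63 ± 0.38 SE, limma, Benjamini-Hochberg adjusted p = 0.777, and 0.952 for Gata4). H3K4me1 summed to 165 and 156 kb, and Irx1, with 1 and 1 kb in Flt3-ITD and 0 in all 8 other libraries, was the 1 call, where 0.73% of all genes rose. Irx1 met the filter of 2 libraries only through the Flt3-ITD libraries, where it is high. Its call therefore describes where its peaks lie and is no test. The Irx1 call too ended when the spread was held to 1 peak. The count of H3K4me1 calls was 0 without either Flt3-ITD library and 2 without WT replicate 1, and that of H3K4me3 calls 2 without Flt3-ITD replicate 1.

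In Npm1c HSPC, H3K4me3 gave 1 call. The sums were 125 and 101 kb, 93.1% of the WT mean against 107% over all genes. Irx5 fell (log2 change -0.36 ± 0.04 SE, limma, Benjamini-Hochberg adjusted p = 0.0126), where 0.403% of all genes fell. Both libraries lay below both WT libraries at 7 genes, against 2.92% of all genes, and above at 0 (6.6%). The count of H3K4me3 calls was 2 without Npm1c replicate 1 and 3 without replicate 2. In H3K4me1 the sums were 90.9 and 151 kb, and Sox14 fell (limma, Benjamini-Hochberg adjusted p = 0.0495), where 0.502% of all genes fell. Replicate 1 lay below both WT libraries at 33 genes (47.1% of all genes) and replicate 2 at 12 (22.5%). The count of H3K4me1 calls was 8 without replicate 2 and 0 without replicate 1. Dlx5 and Sox14 were at 0 in both Npm1c H3K4me1 libraries. Across all genes the median H3K4me1 change was −0.12 in Npm1c and −0.18 in DM.

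H3K27ac could be tested in the windows of Lhx1 and Irx5 only, and these peaks lie at Aatf and Crnde. In Npm1c the Irx5 window rose (log2 change 0.67 ± 0.13 SE, limma, Benjamini-Hochberg adjusted p = 0.0244), where 16.8% of all genes rose and the median change over all genes was 0.35. In neutrophils both windows fell, Lhx1 (log2 change -0.36 ± 0.11 SE, limma, Benjamini-Hochberg adjusted p = 0.0359) and Irx5 (log2 change -0.44 ± 0.13 SE, limma, Benjamini-Hochberg adjusted p = 0.0378), where 23.4% of all genes fell and the median change was −0.12. All 3 calls ended with libraries centred on their median. The neutrophil calls also ended with any 1 library of WT or neutrophils left out, and the Npm1c call without either WT library or Npm1c replicate 2. In Flt3-ITD, where the median was 0.11, and in DM, 0 windows passed in limma, where 0.262% and 12.5% of all genes did. At an unadjusted p below 0.05, 1 was higher in Flt3-ITD and 1 lower in DM.

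The genes of the enzymes behind these marks, and other gene lists, were counted in the same tests. Over all genes tested, H3K4me3 fell at 9.88% and rose at 6.72% in neutrophils, and fell at 3.7% and rose at 4.47% in DM. Of 11 Polycomb repressive complex 2 genes 0 changed in H3K4me3 in any comparison with WT, and all 11, among them Ezh2, Suz12 and Eed, had H3K4me3 and H3K27ac in both libraries of every group. Of 19 Polycomb repressive complex 1 genes, H3K4me3 in DM rose at Pcgf5 and Rybp and fell at Phc1. Of 18 enzymes that add or remove H3K4 and H3K27 methylation, H3K4me3 of Kdm5b and Kmt2d fell in neutrophils and that of Kmt2d in DM and in Flt3-ITD. For H3K27ac in Npm1c, 3 of 11, 6 of 19 and 5 of 18 genes of these lists rose and 0 fell, where 16.8% of all genes tested rose. Other developmental factors were counted the same way: in neutrophils H3K4me3 fell at 20 and rose at 1 of 73 tested, and in DM it fell at 2. HOX genes had 9 falls and 1 rise of 39 in neutrophils and 4 falls in DM, and blood factors 2 rises and 2 falls of 23 in neutrophils. Whether these lists differ from the 45 genes was not tested.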

How the data were processed

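The 30 files analysed are the authors' deposited peak lists, 1 for each library, with chromosome, start and end of each peak and no score, height or count, so their depth is unknown and precision rests on 2 libraries per group. Per the submitters' processing notes, Bowtie2 2.1.0, Picard, HOMER and MACS2 were used with mm10, with no role given for each mark. Which versions and cut-offs the peak callers ran with is not given in the sources used here. All 5 input samples were not used here.

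Peaks were merged within a library, and the bp under peaks was summed over each RefSeq (GRCm38.p6, which is mm10) gene span with 5 kb on each side. Windows of 10 of the 45 genes overlap that of another protein-coding gene. Genes covered in at least 2 of 10 libraries were fitted with limma 3.58.1 (R 4.3.3; trend in eBayes) on log2(bp + 500) over 5 groups for each mark, with Benjamini-Hochberg adjustment over all genes and a threshold of 0.05. The fit was also run on simulated H3K4me3 data, in which only genes of higher coverage were lowered, by a smooth step. That setting is unlike falls to 0 in steps of about 1 kb, so it does not bear on such calls. Values in every library are given for members past the threshold in any of the 12 tests against WT, with H3K27ac in any library, or among the 5 with the most H3K4me3 in WT. Other lists give up to 4 genes, those past a test first. Other members with values, and further names in those lists, were chosen after their values were seen. Some results for Polycomb repressive complex 1 genes are not reported here.

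Alternatives were other windows, pseudocounts, filters, centring, a replicate block, robust fitting, wider H3K27ac peaks, each library left out and, chosen after seeing the data, a spread of at least 1 peak and all of these for DM against each single mutant. The members and lists were chosen with earlier results of these data known. Nothing says that libraries came from separate mice, so p-values measure the spread between libraries, which may be technical. Tables and figures were made with Python 3.11.15, NumPy 2.4.6, pandas 2.3.3 and matplotlib 3.10.9.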

Additional observations from a re-analysis of the deposited data

Results flagged for a closer look

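In 5 cases the DM value differed from the sum of the Npm1c and Flt3-ITD changes, as an interaction in limma with Benjamini-Hochberg adjustment, reading DM as the double mutant. For Irx1 H3K4me1 the interaction was −1.58 on the log2 scale (adjusted p = 8.66e-07), with a peak in both Flt3-ITD libraries and in no other HSPC library. Neutrophils had no Irx1 peak either. The gene thus met the filter only through Flt3-ITD, and its p-value is no test of an interaction. For Irx4 H3K4me1 it was −1.83 (adjusted p = 0.0069), with DM at 0. For Nkx6-1 H3K4me3 it was −0.74 (adjusted p = 5.97e-15), with 2 and 2 kb in Flt3-ITD and 1 and 1 kb in each other group. Each of these 3 ended with libraries centred on their median and when the spread was held to at least 1 peak, the Irx4 and Nkx6-1 cases also without the 5 kb, and the size of the first pair depends on the 500 bp added. For H3K27ac in the windows of Lhx1 and Irx5 it was −0.57 (adjusted p = 0.0438) and −1.03 (adjusted p = 0.0182), and both ended with libraries centred on their median, with peaks of at least 500 bp, and when either WT library or the second Flt3-ITD library was left out. The Lhx1 case also ended without a filter, with the replicate number as a block, and without either Npm1c library or DM replicate 2, so that it passed under 7 of 17 alternatives and the Irx5 case under 12 of 17. Over all genes the interaction passed at 4.25% for H3K4me1, 5.74% for H3K4me3 and 17% for H3K27ac.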

How the results depend on the processing

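Of 37 calls among the 45 genes against WT, 12 passed under every alternative other than leaving out a library, and 7 of these also with each library left out: Lmx1a, Lmx1b and Six3 for H3K4me3 and Irx4, Otx2 and Tbx3 for H3K4me1 in neutrophils, and Irx4 for H3K4me1 in DM. No change of these 37 turned in sign (0 cases). Over the 45 genes the split of estimates did turn with centring, from 35 lower and 5 higher to 21 and 24 for H3K4me1 in DM, and from 5 lower and 28 higher to 27 and 18 for H3K4me3 in Flt3-ITD. Of 316 counts compared, 234 stayed within 1.5 times. With libraries centred on their median, calls numbered 0 for H3K4me1 in Npm1c, 23 for H3K4me1 in neutrophils, 0 for H3K4me3 in Flt3-ITD, 7 for H3K4me3 in DM, and 0 for H3K27ac in Npm1c and in neutrophils. With the spread held to at least 1 peak they numbered 5, 0, 7 and 24 for H3K4me1 in Npm1c, Flt3-ITD, DM and neutrophils, and 12 and 24 for H3K4me3 in DM and neutrophils. Without a filter they were 0 for H3K4me1 in Npm1c, 1 for H3K4me3 in DM, and 0 for H3K27ac in Npm1c and neutrophils. With at least 4 libraries they were 0 for H3K4me1 in Npm1c and Flt3-ITD. A pseudocount of 2000 bp gave 0 for H3K4me1 in Npm1c and 1 for H3K27ac in neutrophils. Robust fitting gave 0 for H3K4me1 in Npm1c and 1 for H3K4me3 in DM. Without the 5 kb, H3K4me3 gave 2 in Npm1c and 2 in Flt3-ITD, and with 10 kb it gave 0 in Npm1c. H3K27ac peaks of at least 500 bp gave 0 in Npm1c. Without the 5 kb no gene could be tested for H3K27ac, so that setting gave no value. For DM against Flt3-ITD, H3K4me3 calls numbered 4 with 100 bp added, 3 without a filter, 4 with 10 kb and 15 with the spread held to at least 1 peak, and H3K4me1 calls 1 with at least 4 libraries and 7 with the spread held. For DM against Npm1c, H3K4me3 calls numbered 1 with 100 bp added, 1 without the 5 kb, 2 with centring and 6 with the spread held, H3K4me1 calls 2 with 2000 bp added and 0 without the 5 kb, and H3K27ac calls 1 without a filter, 0 with centring and 0 with peaks of at least 500 bp. The cause of these changes was not tested.

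Leaving out 1 library gave 0 to 8, 0 to 2, 1 to 3 and 6 to 11 H3K4me1 calls in Npm1c, Flt3-ITD, DM and neutrophils, 1 to 3, 1 to 2, 1 to 14 and 7 to 12 H3K4me3 calls, and 0 to 1 H3K27ac calls in Npm1c and 0 in neutrophils. For DM against Flt3-ITD it gave 1 to 3 H3K4me1, 4 to 16 H3K4me3 and 0 H3K27ac calls, and against Npm1c 2 to 10, 0 to 12 and 0 to 2. A lone library was then assumed to vary like the other groups.

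The replicate numbers did not pair the libraries: deviations of same-numbered libraries correlated at −0.11 to 0.07 in H3K4me1, at −0.23 to 0.10 in H3K4me3 and at −0.11 to 0.28 in H3K27ac over 10 pairs each. With a replicate block, calls numbered 0 for H3K4me1 in Npm1c, 1 for H3K4me3 in DM, 1 for H3K27ac in neutrophils, 10 for H3K4me3 in neutrophils 12 for H3K4me1 in neutrophils, 3 for H3K4me3 in DM against Flt3-ITD and 2 for H3K4me1 in DM against Npm1c.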
